A study of Homo sapiens with 2 samples.

Results

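The reference small RNAs of the array comprised 7 of its 718 probe names and were taken by name, after the trailing probe number was removed. They were the spliceosomal RNA RNU6B, the ribosomal RNA 5s, the box C/D small nucleolar RNAs (snoRNAs) RNU24, RNU38B, RNU44 and RNU48, and the box H/ACA snoRNA RNU66. They were measured in HepG2, an established human hepatocellular carcinoma cell line, on 1 control array and 1 array whose label gives TCDD (a dioxin and ligand of the aryl hydrocarbon receptor) at 10 nM for 48 h, called the TCDD array here. All directions rest on these labels. The control label gives neither a dose nor a vehicle, and both groups were grown in the same serum-containing medium. Each deposited value is the log2 fluorescence of 1 channel. Since neither group has a second array, no difference below could be tested, and precision is limited by the number of arrays.

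RNAs of this kind are widely used as internal standards in small RNA assays, to correct for unequal input. U6 RNA sits at the catalytic centre of the spliceosome and 5S rRNA is part of the large ribosomal subunit. Both are transcribed by RNA polymerase III from genes of their own. The snoRNAs are cut from introns of transcripts made by RNA polymerase II. Box C/D snoRNAs guide ribose methylation and box H/ACA snoRNAs guide pseudouridylation of other RNAs, mainly rRNA. In the RefSeq gene table (GRCh38.p14) RNU24 lay within RPL7A and RNU66 within RPL5, both genes of ribosomal proteins, while RNU44 lay within GAS5 and RNU48 within SNHG32, both long noncoding RNA genes. RNU66 also lay within the span of DIPK1A. No host gene is named here for RNU38B. The name RNU6B belonged to RNU6-6P, which the table calls a pseudogene, and 17 genes were named RNA5S. The probe sequences were not used here, so which copies of U6 or 5S RNA each probe reports cannot be told from its name.

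The start regions of host genes are shown because transcription of the snoRNAs starts there, in contrast to RNU6B and 5s, which have genes of their own. RefSeq start regions of 3 of these 4 hosts were used, and each line gives the 60 bases before and the 20 bases from the annotated start, on the gene's strand in GRCh38.p14. Capitals mark the longest unbroken run of C or T of at least 8 bases that reaches within 10 bases of the start. A pyrimidine run at the start is typical of ribosomal protein genes and of many snoRNA hosts.
RPL7A, host of RNU24, chr9:133348158-133348237, plus strand: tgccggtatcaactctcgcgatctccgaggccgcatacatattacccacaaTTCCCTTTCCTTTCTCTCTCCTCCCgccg
SNHG32, host of RNU48, chr6:31834856-31834935, plus strand: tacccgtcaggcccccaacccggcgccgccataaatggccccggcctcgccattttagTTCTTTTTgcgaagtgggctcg
GAS5, host of RNU44, chr1:173869026-173869105, minus strand: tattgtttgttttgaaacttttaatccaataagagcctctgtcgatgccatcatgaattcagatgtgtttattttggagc
The run was present in RPL7A (25 bases) and SNHG32 (8 bases) and not in this window of GAS5, against 15.01% of 27305 human start regions. The core letters bound by the aryl hydrocarbon receptor, GCGTG on either strand, were in 0 of these 3 start regions of 300 bases and in 36.3% of all. A match or its lack describes only the letters of the window.

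On the deposited scale the pair of polymerase III RNAs was about 1.5-fold brighter on the TCDD array, while 4 of the 5 snoRNAs lay close to their control level. A total of 238 names were measured, meaning above the floor (a fluorescence of 100, or 6.64 log2) on at least 1 array and not at the top of the signal range. All 7 reference RNAs were above the floor on both arrays, and 6 of them were measured. None of the 6 was at least 2-fold apart, against 2.94% of the 238 measured names. RNU6B alone was at least 1.5-fold higher, 1 of the 6, against 3.36% of the measured names, and 0 of the 6 were at least 1.5-fold lower, against 4.2%.

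RNU6B had a log2 fluorescence of 13.79 on the control array and 14.44 on the TCDD array. It was 1.57-fold higher there, a log2 difference of 0.65. The 5S rRNA was at 14.57 in control and 15.15 on the TCDD array, 1.49-fold higher or 0.57 on the log2 scale. In such bulk samples, more cells with an RNA and more of it per cell cannot be told apart. Both polymerase III RNAs were higher on the TCDD array, and their differences lay 0.08 apart. Of 220 measured human miRNAs, 6 had a difference above that of RNU6B and 7 above that of 5S rRNA. The counts above RNU6B and 5S rRNA were 3 and 4 of 168 miRNAs with the stricter floor at the 75th percentile. They were 12 and 14 of 221 after quantile normalization. Of the 220, they were 3 and 6 with the floor added to each signal, 13 and 15 with no floor, and 8 and 16 with the level trend removed. Over all measured names, 3.78% had a difference at least as high as that of 5S rRNA, a share that includes RNU6B and 5S rRNA themselves. The 6 miRNAs above RNU6B were miR-638 (1.10), miR-92a-1* (0.76), miR-194 (0.72), miR-501-5p (0.71, a lower bound), miR-301b (0.71) and miR-497 (0.67), named after their values were seen.

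**Figure D1:**
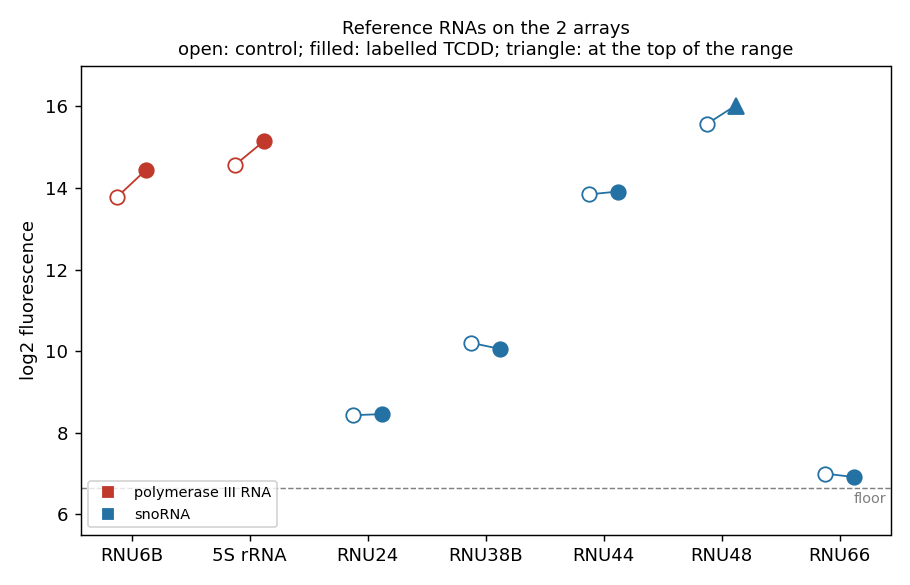
Log2 fluorescence (vertical axis) of the 7 reference RNAs (horizontal axis), with an open symbol for the control array and a filled symbol for the TCDD array. RNU6B and 5S rRNA lie 0.65 and 0.57 higher on the TCDD array, RNU24, RNU38B, RNU44 and RNU66 differ by -0.15 to 0.07, and the triangle of RNU48 is a lower bound.

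Among the snoRNAs, RNU44 was bright, at 13.85 in control and 13.91 on the TCDD array, a difference of 0.07. RNU24 was at 8.43 and 8.46, a difference of 0.03. RNU38B was at 10.20 in control and 10.06 on the TCDD array, and was 1.11-fold lower there, a difference of -0.15. RNU66, the box H/ACA snoRNA, was close to the floor at 6.996 in control and 6.91 on the TCDD array, a difference of -0.08. These 4 snoRNAs spanned 0.21 on the log2 scale in their differences, 2 above 0 and 2 below. The robust SD of the differences over the 222 names above the floor on both arrays was 0.28, larger than each of the 4. The sign of RNU44 turned under other scalings, to -0.05 with the level trend removed and -0.06 after quantile normalization, and those of RNU44 and RNU24 were both -0.05 before the deposited scaling. These snoRNAs are therefore given as near 0 and without a direction.

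RNU48, the brightest snoRNA, has only a bound. It was at 15.58 on the control array, where it ranked 5 of 718 names, and at 16.02 on the TCDD array, where it shared the highest value with miR-103. When the deposited scaling was undone, the highest signal was 65136.8 units on the control array and 65129 on the other, both just under the largest number a 16-bit scanner can record, 65535. In those units RNU48 read 51143.8 on the control array and 65129 on the TCDD array. RNU48 was therefore at least 1.36-fold higher on the TCDD array (a bound of 0.44 on the log2 scale), or at least 1.27-fold higher before the deposited scaling. On the log2 scale the bound was 0.28 with the level trend removed. After quantile normalization the difference of RNU48 was 0.61, which is set by its tied rank on the TCDD array and is not a bound. This box C/D snoRNA did not share the near-0 differences of the other 4, and how far above its bound it lay was not measurable.

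By class, the median difference was 0.61 for the polymerase III RNAs (n = 2) and 0.03 for the snoRNAs (n = 5), 0.59 apart. The median of the snoRNAs stays at RNU24 wherever above its bound RNU48 lay. Without RNU48 the snoRNA median was -0.03 and the classes were 0.64 apart. Over the 220 measured miRNAs the median was -0.006, with 106 above 0 and 114 below. The lowest polymerase III difference (5S rRNA) exceeded the highest of the 4 measured snoRNAs (RNU44) by 0.50. That gap was 0.32 after quantile normalization, 0.33 with the level trend removed and 0.51 before the deposited scaling. These gaps leave out RNU48. Whether the classes overlap on the deposited scale cannot be said, because the bound of RNU48 is open above. After quantile normalization the difference of RNU48 (0.61, set by its tied rank) lay above RNU6B (0.50) and 5S rRNA (0.47), so the classes overlapped there at that rank. No test is possible with 1 array per group, and the members of a class are not replicates of a condition.

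The ratio of 2 RNAs on the same array does not depend on a constant scaling factor, and RNU6B and RNU44 allow the comparison at like level. On the control array their log2 values were 0.06 apart, with RNU44 the brighter. On the TCDD array RNU6B was the brighter by 0.53, so the log2 ratio of RNU6B to RNU44 moved by 0.58, and by 0.59 before the deposited scaling. The log2 ratio of 5S rRNA to RNU44 went from 0.73 to 1.23. Of the 15 pairs among the 6 measured RNAs, the 7 within a class changed by 0.04 to 0.21 and the 8 between classes by 0.50 to 0.80, with RNU6B against RNU38B the furthest. The 15 pairs share 6 probes and are not independent, and RNU48 was left out of them. The ratios of RNU48 to RNU44, RNU24, RNU66 and RNU38B changed by at least 0.38, 0.42, 0.53 and 0.59. The ratios of RNU6B and 5S rRNA to RNU48 changed by 0.21 and 0.13 with RNU48 at its bound. The split by class thus holds only for the 6 measured RNAs.

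**Figure D2:**
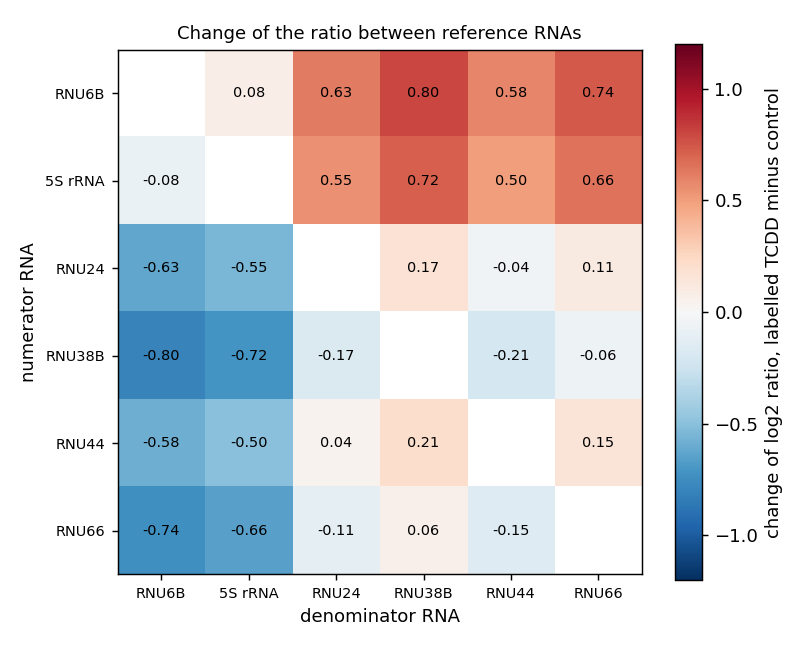
Change of the log2 ratio of the row RNA to the column RNA, TCDD array minus control, for the 6 measured reference RNAs. The ratios of RNU6B or 5S rRNA to a measured snoRNA changed by 0.50 to 0.80, and ratios within a class by at most 0.21. RNU48 is not drawn, and its ratios to the measured snoRNAs changed by at least 0.38.

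Differences also moved with signal level, and both polymerase III RNAs are bright. In the brightest of 4 level bins of miRNAs (50 names, mean log2 level from 11.38 to 15.18) the median difference was 0.07, and in the dimmest (51 names) it was -0.05. In the bins between, from dimmer to brighter, the median was -0.13 and 0.02. The SD of the differences was 0.49 in the brightest bin, against 0.24 to 0.32 in the others. The 5 miRNAs within 0.5 log2 of the mean level of RNU6B had differences from -0.17 to 0.07, all below that of RNU6B, and miR-638 (1.10) lay outside this window. The 8 miRNAs at the level of 5S rRNA ranged from -1.17 to 0.39, again all below it. RNU44 lay inside the range of its 7 neighbours in level, whose median was 0.07, as did RNU24 among 37, RNU38B among 22 and RNU66 among 42. With the level trend removed, RNU6B was at 0.53 and 5S rRNA at 0.43. No measured miRNA lay within 0.5 log2 of the level of RNU48.

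**Figure D3:**
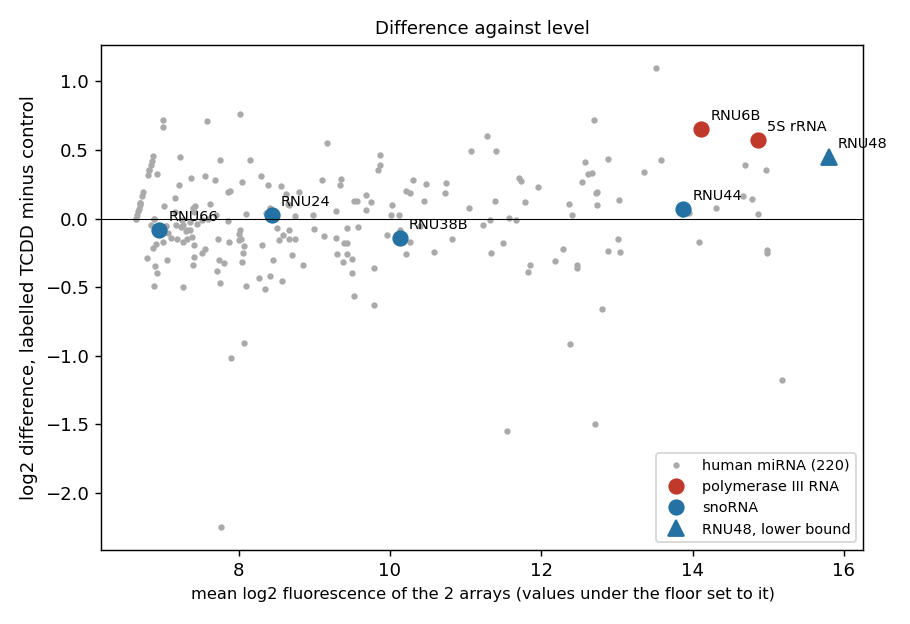
Log2 difference, TCDD array minus control (vertical axis), against mean log2 fluorescence (horizontal axis), for 220 measured human miRNAs (grey) and the 7 reference RNAs. RNU6B (0.65) and 5S rRNA (0.57) lie above the miRNAs within 0.5 log2 of their level, while RNU44, RNU24, RNU38B and RNU66 lie among them.

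The miRNAs most like each class in difference, among those within 1 log2 of a member's level, were a weak match for the polymerase III RNAs. The nearest of 16 candidates to their median of 0.61 were miR-106a (13.37 in control, 13.79 on the TCDD array, difference 0.43), miR-34a (14.50 and 14.89, 0.39) and miR-26a (14.80 and 15.15, 0.36). The 3 nearest of 166 candidates to the snoRNA median of 0.03 were miR-345 (10.11 and 10.13), miR-769-5p (8.97 and 8.99) and miR-151 (10.01 and 10.03). The likeness rests on a single difference between 2 arrays.

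Used as a normalizer, a reference RNA is set to be equal on both arrays and its difference is subtracted from every miRNA. On the deposited scale 1 of 220 miRNAs was at least 2-fold higher on the TCDD array (miR-638) and 5 were at least 2-fold lower (miR-181a, miR-181b, miR-181a*, miR-184 and miR-191). Centred on RNU24 or on RNU44 the counts were again 1 higher and 5 lower, and the same 6 miRNAs were called. Centred on RNU38B or RNU66 they were 1 higher and 4 lower, all 5 among those 6. Centred on RNU6B, 0 miRNAs were at least 2-fold higher and 24 were lower, among them 5 of the 6, and 97.3% of the miRNAs had differences below 0, with a median of -0.66. Centred on 5S rRNA, 0 were higher and 17 lower, with a median of -0.58. The 24 lower after centring on RNU6B numbered 10 with quantile normalization or with the level trend removed, and 15 with the floor added to each signal. For 5S rRNA the 17 numbered 10 after quantile normalization, 9 with the level trend removed and 10 with the floor added.

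The call of some miRNAs depended on the reference. miR-638 was 2.14-fold higher on the deposited scale and passed 2-fold after centring on each of the 4 measured snoRNAs, but on neither polymerase III RNA. miR-191 was at -1.17 on the deposited scale and at -1.83 after centring on RNU6B. Among the miRNAs that reached 2-fold lower with RNU6B and not on the deposited scale, named after their values were seen, were let-7a (-1.04), miR-146a (-1.28), miR-21* (-1.57) and miR-193b (-1.31).

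**Figure D4:**
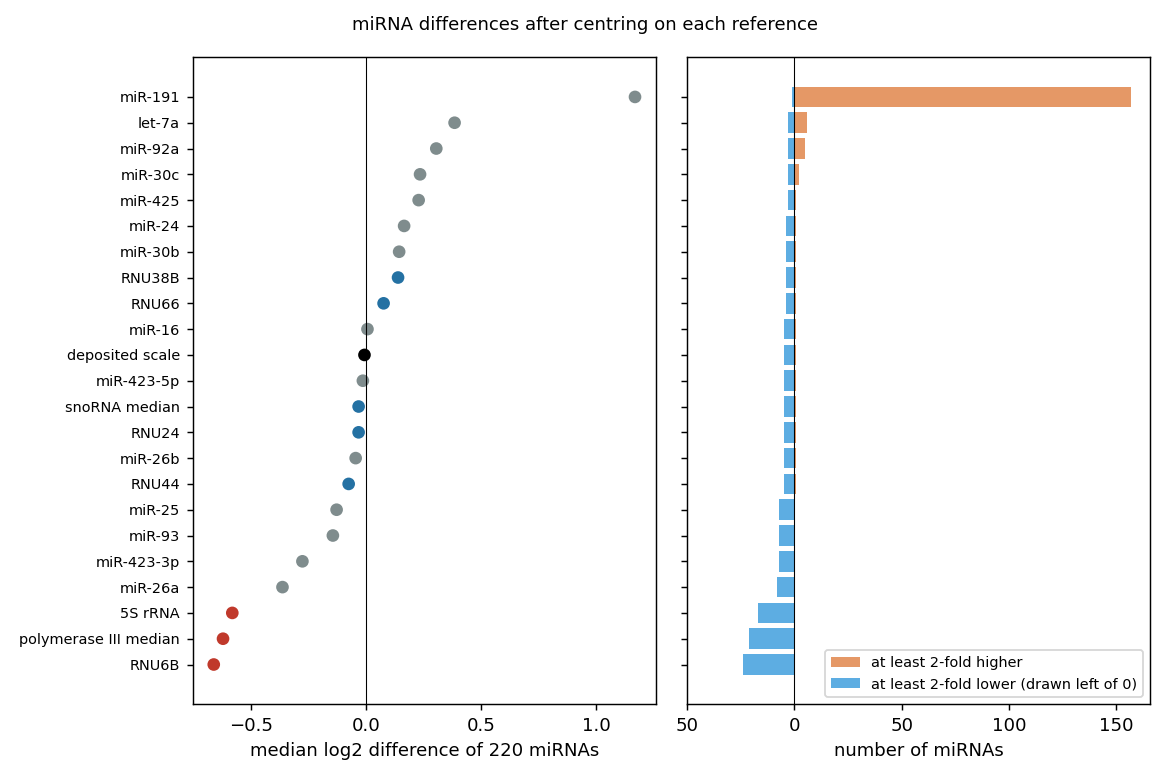
Left, the median log2 difference of 220 miRNAs (horizontal axis) after centring on each reference (vertical axis). Right, the number of miRNAs at least 2-fold higher (right of 0) or lower (left of 0). Red marks polymerase III RNAs, blue snoRNAs, grey miRNAs and black the deposited scale. RNU6B gives 24 lower, each measured snoRNA gives 4 or 5, and miR-191 gives 157 higher.

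Some miRNAs are also used as internal standards and were set beside the reference RNAs. Of 17 listed, 16 were on the array, all were above the floor, and 14 were measured. Their median difference was -0.08 (6 above 0, 8 below), against -0.006 over all measured miRNAs. Of the 14, 10 lay within the robust SD (0.28) of 0, and so did all 4 measured snoRNAs, but neither polymerase III RNA. That limit is set by the spread of these same differences, so most names lie inside it by construction. The counts therefore do not show that these references are steadier than other names. Among the 14, nearest to 0 were miR-423-5p (11.57 on both arrays, difference 0.007), miR-16 (11.33 and 11.32, -0.01) and miR-26b (8.34 and 8.38, 0.04). The others from above to below 0 were miR-26a (0.36), miR-423-3p (0.27), miR-93 (0.14), miR-25 (0.12), miR-30b (-0.15), miR-24 (-0.17), miR-425 (-0.23), miR-30c (-0.24), miR-92a (-0.31), let-7a (-0.39) and miR-191 (-1.17). Both arms of one hairpin, miR-423-5p and miR-423-3p, thus differed by 0.26 from each other.

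The mature sequences of 4 of these reference miRNAs are shown because they include the reference furthest from 0, one of the nearest to 0, and the pair that could not be measured. They are from RefSeq (GRCh38.p14), with the seed (bases 2 to 8) in capitals.
miR-191: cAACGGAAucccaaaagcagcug
miR-16: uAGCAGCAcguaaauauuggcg
miR-103: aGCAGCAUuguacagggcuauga
miR-107: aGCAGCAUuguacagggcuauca
miR-191, among the most used of them, was at 15.77 in control and 14.60 on the TCDD array. Centring on it made 157 of 220 miRNAs at least 2-fold higher and 1 lower, while centring on miR-16 gave 1 higher and 5 lower, as on RNU24 and RNU44. miR-103 and miR-107 share their seed and differ at 1 base of 23 (G22C, miR-103 first, counted from the 5′ end). They stood with RNU48 at the top of the range on the TCDD array (16.02 each), and miR-107 also on the control array (15.93). miR-103 was at 15.898 in control, at least 1.09-fold higher on the TCDD array, and miR-107 has no measurable difference.

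Other reference and related RNAs gave no signal to set beside the 7. Of 11 other listed snRNA and snoRNA references 2 were on the array, RNU43 and Z30, and with 5.8s 0 of 3 were above the floor. The 5.8S rRNA, a partner of 5S rRNA in the large ribosomal subunit that is made by RNA polymerase I, was at 5.64 in control, the smallest deposited value, and 5.66 on the TCDD array. The snoRNA RNU43 was at 6.38 and 6.15, and the snoRNA Z30 was at the smallest value on both arrays. Of 13 listed polymerase III products or their fragments outside the 7, 2 were on the array, miR-886-3p (5.64 and 5.97) and miR-886-5p (5.90 and 5.75), pieces of a vault-like RNA, and both were under the floor. RNU6B and 5S rRNA therefore had no further polymerase III RNA to be compared with. None of the 5 listed miRNAs derived from snoRNAs matched a name on the array.

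The cell type was checked on marker miRNAs. Of the hepatocyte markers, miR-122a, the main hepatocyte miRNA, was dim at 7.60 in control and 7.59 on the TCDD array, miR-192 was at 13.88 and 13.96, miR-194 at 12.34 and 13.06, and miR-148a was under the floor on both arrays. Of the 5 blood and 4 muscle markers 0 were above the floor. Both fibroblast and smooth muscle markers were, miR-145 at 12.39 and 12.42 and miR-143 at 10.17 and 10.36. Their part in the differences of the reference RNAs was not tested.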

How the data were processed

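The deposited table holds 1 log2 fluorescence value per probe and array for 719 probes, and per the series' design text each comes from 1 channel of a 2-colour array whose channels were not compared. A linker carrying the dye was ligated onto total RNA, per the labels' protocols. Scanner, background correction and scaling are not given in the labels or files. Probes of 1 name were averaged (718 names). Values under 2 times the smallest fluorescence of 50 were set to that floor of 100 before differences (TCDD array minus control) were computed. The values before the deposited scaling were recovered by fitting a second-degree curve (exponent 2) to the grid of single units, which reached 97.9% of 242 distinct control values and 100% of 250 on the other array within 0.05 units. This step was inferred from the numbers and is not described by any source. Names within 2 units of an array's highest signal (4 names, with RNU48, miR-103, miR-107 and ambi_miR_562) were treated as saturated and left out of counts. The robust SD is the scaled median absolute deviation of the differences. Names in the text are the 7 reference RNAs, the detected names of the lists, miRNAs 2-fold apart, the saturated names, the marker miRNAs and the 3 nearest miRNAs per class. The members and lists were chosen with earlier results of these data known. The tools were numpy 2.4.6, pandas 2.3.3, statsmodels 0.14.6 and matplotlib 3.10.9 under Python 3.11.15, and the code was tested on simulated data.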

Additional observations from a re-analysis of the deposited data

How the results depend on the processing

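Each difference was recomputed under 7 settings, which were median centring, a lowess trend removed (fraction 0.5), quantile normalization, the values before the deposited scaling, an added floor, no floor, and the 75th percentile as floor. All 48 alternative values of the 7 reference RNAs stayed within the robust SD (0.28) of the main value, the furthest moving by 0.17. Part of the 48 was fixed in advance. Members above the floor keep their main value with no floor or with the 75th percentile as floor. Median centring moves all members alike. RNU66 lay under the floor at the 75th percentile and has no value there. RNU6B ranged from 0.50 to 0.67 and 5S rRNA from 0.43 to 0.59. RNU48 ranged from a bound of 0.28 to 0.61, the latter set by its tied rank after quantile normalization. The class difference ranged from 0.52 to 0.64. That range includes the mean in place of the median and, added after seeing the data, RNU6B against RNU44 alone. The mean takes RNU48 at its bound, so the class difference by the mean (0.55) is an upper limit only. Signs changed for RNU44 under 3 settings and for RNU24 under 1. The reference miRNA median ranged from -0.20 to -0.04. The counts of miRNAs depended more on the setting. Centred on the polymerase III median, 21 were at least 2-fold lower, against 10 after quantile normalization, 10 with the trend removed and 11 with the added floor, and 119 at 1.5-fold and 5 at 3-fold. Centred on the snoRNA median, 1 was higher and 5 lower. The count higher was 6 at 1.5-fold, 0 at 3-fold and 8 with no floor, and the count lower was 10 at 1.5-fold and 1 at 3-fold. Of 482 alternative counts for the other references, many of them of 0 to 5 miRNAs, 135 were more than 1.5 times apart from the main count. These include counts at 1.5-fold, which cannot be lower than at 2-fold, and at 3-fold, which cannot be higher. Counting miR-103 and miR-107 at their deposited values, also added later, changed neither of these 2 pairs of counts. The median of all names above the floor on both arrays was -0.01 on the deposited scale and -0.09 before scaling. No paired analysis was possible because there is 1 array per group, which also leaves no replicate to omit. RNU66 is limited by the floor and RNU48 by the top of the range.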
